A study of Mus musculus with 4 samples.

Results

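Mural cells are the contractile and supporting cells wrapped around blood vessels, and 10 of their marker genes were followed here in the lumbar spinal cord. They were taken by symbol from the 27179 gene identifiers in each count file: Pdgfrb, Vtn, Ndufa4l2, Rgs5, Higd1b, Abcc9 and Notch3, used as pericyte markers, and Myh11, Acta2 and Tagln, used as markers of vascular smooth muscle. All 10 were matched, and all 10 were among the 16918 genes with enough counts to be tested. RNA was measured in 4 libraries of poly(A) RNA-seq made from the L4-6 cord of male C57BL/6J mice, an inbred laboratory strain, and gene counts summed to between 32936609 and 39461573 per library. By the sample titles, 2 libraries came from mice with a cuff around the sciatic nerve, a constriction used to model lasting neuropathic pain, and 2 from sham-operated mice, which share the surgery without the nerve being constricted. The design text gives 28 days after surgery for both groups. File names carry the opposite condition to the titles in all 4 cases. The titles were followed, and each direction below would be reversed if the file names were the correct ones. Nothing in the labels says whether a library is 1 animal or a pool, or that libraries came from separate animals, so p-values measure the spread between these libraries only.

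Pericytes sit on capillaries within the basement membrane they share with the endothelium, and smooth muscle cells ring arterioles and venules. Endothelial platelet-derived growth factor B recruits and keeps pericytes through the receptor PDGFRβ, and Notch3, activated by Jagged and Delta-like ligands, maintains mural cells. In the spinal cord mural cells regulate local blood flow and the blood-spinal cord barrier, and their contractile genes are driven by serum response factor (SRF), which binds the CArG box.

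Promoters of 5 of the 10 genes were taken from a RefSeq table of build GRCm38.p6, the assembly that mm10 names. Each runs from 250 bases before to 50 bases after the start given there. The promoter of Pdgfrb was not searched and is not reported here. Those of Vtn, Acta2 and Rgs5 are shown because Vtn was called higher, Acta2 is the contractile gene of the set with a promoter in the table, and Rgs5 showed no rise. Capitals mark letters that match either of 2 motifs on either strand: TGGGAA, the core bound by the Notch effector RBPJ, and the CArG box with at most 1 inner base other than A or T. The relaxed form of the CArG box was added after the strict form matched none of the 5.
Vtn, plus strand, chr11:78498870-78499169: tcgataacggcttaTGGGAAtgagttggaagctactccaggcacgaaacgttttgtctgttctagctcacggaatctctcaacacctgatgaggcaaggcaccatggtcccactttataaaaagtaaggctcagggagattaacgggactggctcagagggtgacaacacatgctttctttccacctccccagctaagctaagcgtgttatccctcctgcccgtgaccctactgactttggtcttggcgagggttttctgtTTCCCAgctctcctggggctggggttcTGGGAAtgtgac
Acta2, minus strand, chr19:34255324-34255623: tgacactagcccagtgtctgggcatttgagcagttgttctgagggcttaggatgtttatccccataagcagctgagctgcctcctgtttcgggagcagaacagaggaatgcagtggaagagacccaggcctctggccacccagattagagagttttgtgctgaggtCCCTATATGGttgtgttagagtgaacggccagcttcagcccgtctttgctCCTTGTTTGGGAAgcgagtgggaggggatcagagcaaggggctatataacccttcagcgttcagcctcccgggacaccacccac
Rgs5, plus strand, chr1:169655251-169655550: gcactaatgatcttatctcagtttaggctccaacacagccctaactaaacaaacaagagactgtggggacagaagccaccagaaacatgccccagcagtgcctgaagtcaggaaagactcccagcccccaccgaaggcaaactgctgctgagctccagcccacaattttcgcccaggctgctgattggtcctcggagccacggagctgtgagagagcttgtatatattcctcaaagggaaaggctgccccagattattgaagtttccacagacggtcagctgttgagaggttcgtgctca
The start used is the first base of the gene span given below for Vtn and Rgs5. For Acta2, Abcc9 and Notch3 it lies inside the span, in Notch3 by a few bases only. With that start counted as 0, Acta2 matched the relaxed CArG box at positions -84 and -34. The match at -34 shares 3 bases with a TGGGAA match at -27. None of the other 4 promoters held the relaxed box, which 9.98% of 32851 promoters hold, while the strict box is in 1.63%. TGGGAA stood 3 times in Vtn, at -236, 11 and 38, once each in Abcc9 and Acta2 and not in Rgs5 or Notch3, against 25.6% of all promoters with at least 1 match. These are matches of letters and say nothing of binding.

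Of the 10 genes, 3 rose in cuff-labelled libraries, none fell, and 7 did not pass (edgeR quasi-likelihood test, Benjamini-Hochberg adjusted p under 0.05 over all genes). Among all 16918 genes 4.11% were called, 1.15% as higher and 2.96% as lower. The genes that rose were Pdgfrb, Vtn and Ndufa4l2. The median log2 fold change (labelled cuff minus labelled sham) was 0.76 over the 10 genes and 0.02 over all genes tested. In 7 of the 10 both cuff-labelled libraries were above both labelled sham, which held for 28.2% of all genes, and in none of the 10 were both below (25.9% of all genes). In a bulk sample a larger number of cells and more RNA per cell cannot be told apart.

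**Figure D1:**
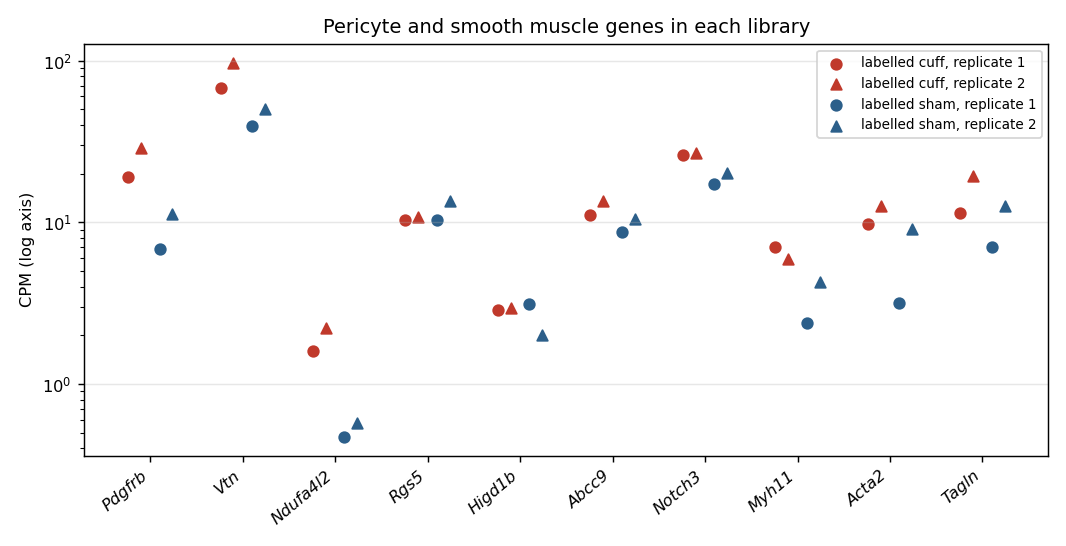
Levels in CPM (log axis) of the 10 genes in each library, red for labelled cuff and blue for labelled sham, with circles for replicate 1 and triangles for replicate 2. Pdgfrb and Ndufa4l2 show the widest gaps between the groups, Rgs5 and Higd1b overlap, and sham-labelled replicate 1 is the lowest for 9 of the 10 genes.

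The receptor genes came out unequally. Pdgfrb, the PDGF-B receptor of pericytes, was at 19.1 and 28.6 CPM (counts relative to library size) in cuff-labelled libraries, against 6.83 and 11.2 CPM in sham-labelled libraries. The groups did not overlap, and within each group replicate 2 was the higher. The log2 fold change was 1.40 ± 0.29 (SE), a 2.64-fold higher level (adjusted p = 0.0456). Notch3, the mural Notch receptor, whose human gene is mutated in the small vessel disease CADASIL (chromosome 17, 32120820 to 32166896), was at 26.01 and 26.78 CPM in cuff-labelled libraries, against 17.3 and 20.2 CPM in sham-labelled libraries. Its groups were also apart, with the 2 cuff-labelled libraries nearly level, but it did not pass the threshold (0.49 ± 0.15, adjusted p = 0.0698).

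Vtn encodes vitronectin, a secreted glycoprotein of plasma and matrix that binds integrins and is made in the central nervous system mainly by pericytes (chromosome 11, 78499120 to 78502325). It was at 67.5 and 97.0 CPM in cuff-labelled libraries, against 39.3 and 50.2 CPM in sham-labelled libraries. Both cuff-labelled values were above both sham-labelled ones, and Vtn rose 1.84-fold (log2 fold change 0.88 ± 0.18, adjusted p = 0.0305). It gave 40.5% and 44.2% of the summed CPM of the 10 genes in cuff-labelled libraries and 39.9% and 37.4% in sham-labelled libraries.

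Ndufa4l2 and Higd1b both encode small mitochondrial proteins, the first induced by hypoxia-inducible factor 1. Ndufa4l2 (chromosome 10, 127509274 to 127517154) had 58 and 76 counts in cuff-labelled libraries, against 18 and 22 in sham-labelled libraries, or 1.61 and 2.23 CPM against 0.471 and 0.570 CPM. It rose 3.68-fold (log2 fold change 1.88 ± 0.46, adjusted p = 0.0319) and was the least abundant of the 10 in CPM. Its exons overlap those of Shmt2 on the opposite strand by 32 nt, and Shmt2 itself was at 32.4 and 37.4 CPM in cuff-labelled libraries and at 22.0 and 26.3 CPM in sham-labelled libraries (0.53, adjusted p = 0.0508). Since the counting strand is not given, the part of such reads in the counts of Ndufa4l2 was not tested. Its close relative Ndufa4, a subunit associated with cytochrome oxidase and present in all cells, averaged 267 ± 17.6 CPM in cuff-labelled libraries and 274 ± 44.1 CPM in sham-labelled libraries (SD, n = 2 each; adjusted p = 0.917). Higd1b (chromosome 11, 102835761 to 102844141) was at 2.86 and 2.93 CPM in cuff-labelled libraries, against 3.14 and 2.00 CPM in sham-labelled libraries. These ranges overlap, since sham-labelled replicate 1 was the highest of the 4, and the log2 fold change was 0.17 ± 0.33 (adjusted p = 0.812).

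Rgs5 and Abcc9 are 2 of the most widely used pericyte markers. Rgs5, which shortens signalling of G proteins coupled to vasoconstrictor receptors (chromosome 1, 169655501 to 169695813), was at 10.3 and 10.7 CPM in cuff-labelled libraries, against 10.3 and 13.5 CPM in sham-labelled libraries. Sham-labelled replicate 2 stood above the other 3, and the log2 fold change of -0.18 ± 0.19 did not pass (adjusted p = 0.632). Abcc9, the sulfonylurea receptor subunit of the vascular KATP channel (chromosome 6, 142587862 to 142702766), was at 11.1 and 13.5 CPM in cuff-labelled libraries, against 8.76 and 10.4 CPM in sham-labelled libraries. The groups did not overlap, but the gap between them was smaller than the gaps between replicates, and the gene did not pass (0.35 ± 0.19, adjusted p = 0.295). The pore subunit of that channel, Kcnj8, was at 4.08 and 3.14 CPM in cuff-labelled libraries and at 2.72 and 1.40 CPM in sham-labelled libraries (0.81 ± 0.36, adjusted p = 0.197).

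The 3 smooth muscle genes had positive log2 fold changes, and none passed. Myh11, the smooth muscle myosin heavy chain (chromosome 16, 14194527 to 14292188), was at 7.07 and 5.92 CPM in cuff-labelled libraries, against 2.38 and 4.28 CPM in sham-labelled libraries, without overlap (0.96 ± 0.29, adjusted p = 0.0696). Acta2, smooth muscle α-actin (chromosome 19, 34240336 to 34255585), was at 9.79 and 12.7 CPM in cuff-labelled libraries, against 3.16 and 9.07 CPM in sham-labelled libraries. The 2 sham-labelled libraries differed more from each other than the second of them differed from either cuff-labelled library (0.88 ± 0.62, adjusted p = 0.523). Tagln, transgelin or SM22α, an actin-binding protein (chromosome 9, 45929628 to 45936058), was at 11.3 and 19.4 CPM in cuff-labelled libraries, against 7.03 and 12.7 CPM in sham-labelled libraries. These ranges overlap (0.64 ± 0.41, adjusted p = 0.452). Tagln shares 1241 nt of exon with an antisense gene and 108 nt with Pcsk7 on the opposite strand, so its counts are uncertain without a known strand setting. Exons of Abcc9 and Notch3 likewise share 158 and 488 nt with antisense genes. The skeletal muscle actin gene Acta1, a close paralogue of Acta2, was at 37.8 and 128 CPM in cuff-labelled libraries and at 22.3 and 12.9 CPM in sham-labelled libraries, and the share of its reads that could be counted as Acta2 was not tested.

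**Figure D2:**
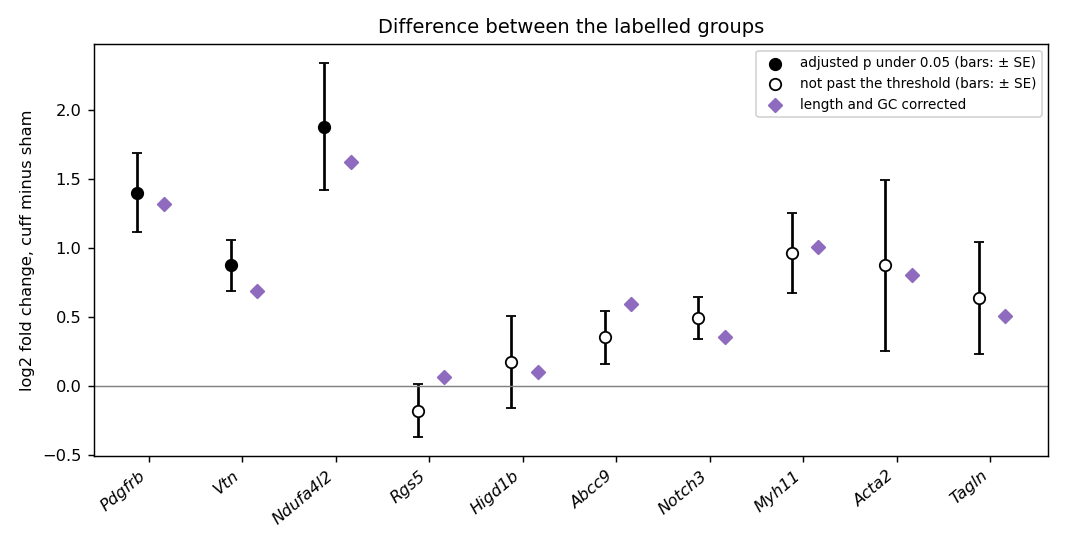
Log2 fold change of each gene, labelled cuff minus labelled sham, with ± SE bars, filled where the adjusted p was under 0.05. Diamonds give the value after a correction, library by library, for the length and GC content of transcripts. Only Pdgfrb, Vtn and Ndufa4l2 are filled, Rgs5 is the one gene below 0 before correction, and all 10 diamonds are above 0.

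Per kilobase of the longest GENCODE M21 transcript, averaged over the 4 libraries, Vtn had by far the highest level, at 36.4 CPM per kb. Its lowest library (22.6) was above the highest of Tagln (12.1), which came next at 7.90. Acta2 (4.26), Higd1b (3.71), Pdgfrb (3.03), Notch3 (2.82) and Rgs5 (2.74) followed, each overlapping its neighbours over the libraries. Abcc9 (1.46), Ndufa4l2 (1.23) and Myh11 (0.750 CPM per kb) were the lowest and overlapped each other in that order, while the highest library of Abcc9 (1.80) was below the lowest of Rgs5 (2.51).

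Differences among pericyte genes do not depend on library scaling when taken as ratios within a library, here for pairs chosen after their values were seen. Such ratios were not corrected for length and GC content. With that correction the log2 fold change of Rgs5 moved from -0.18 to 0.063, Vtn from 0.88 to 0.69 and Notch3 from 0.49 to 0.36. Pdgfrb moved from 1.40 to 1.32, Higd1b from 0.17 to 0.10 and Abcc9 from 0.35 to 0.60. Pdgfrb over Rgs5, in counts per kb, was 1.39 and 2.01 in cuff-labelled libraries, against 0.502 and 0.625 in sham-labelled libraries. Vtn over Rgs5 was 15.3 and 21.2 in cuff-labelled libraries, against 8.99 and 8.70 in sham-labelled libraries. Pdgfrb over Higd1b was 0.905 and 1.32 in cuff-labelled libraries and 0.295 and 0.762 in sham-labelled libraries. Notch3 over Rgs5 was 1.29 and 1.28 in cuff-labelled libraries and 0.861 and 0.761 in sham-labelled libraries. Abcc9 over Rgs5 was 0.584 and 0.687 in cuff-labelled libraries and 0.466 and 0.421 in sham-labelled libraries. Each of these 5 ratios was higher in both cuff-labelled libraries, with no overlap between the groups. All but the ratio to Higd1b divide by Rgs5, the only member with a negative log2 fold change. Each gene on top already had its groups apart. The lack of overlap was thus largely set by the choice of pairs, and the 5 ratios are not separate results. With 2 libraries against 2, an exact permutation test cannot reach 0.05, and none is given. Abcc9 and Notch3 had the most similar pattern over the 4 libraries (root mean square difference of centred log2 CPM 0.113), and Ndufa4l2 and Rgs5 the least similar (0.977). The genes outside the set nearest to its mean pattern, of 12013 with at least 5 CPM on average, included Arap3, Gjb2, Perm1 and Cdc25b (differences of 0.0058 to 0.0551 over 4 libraries).

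PDGF and Notch genes were read from the same fit. Of 7 PDGF genes (the ligands, Pdgfra and the ligand-processing proteases), 1 fell (2.96% of all genes were called lower), none rose and 6 did not pass. The gene that fell was Pdgfd, a ligand of PDGFRβ that needs proteolytic activation, at 18.8 and 12.2 CPM in cuff-labelled libraries, against 26.4 and 25.7 CPM in sham-labelled libraries (-0.75 ± 0.19, adjusted p = 0.037). Pdgfb, the endothelial ligand, was at 9.46 and 9.55 CPM in cuff-labelled libraries, against 6.02 and 5.80 CPM in sham-labelled libraries. The replicates of Pdgfb were close and the groups apart, but its adjusted p was 0.0689 (0.69 ± 0.21). Pdgfra, the receptor of oligodendrocyte precursors and fibroblasts, was at -0.15 ± 0.14 (adjusted p = 0.552). Of 14 Notch genes, 1 rose (1.15% of all genes were called higher), none fell and 13 did not pass. Heyl, a Notch target and transcriptional repressor of mural cells, was at 16.1 and 16.6 CPM in cuff-labelled libraries, against 8.68 and 11.1 CPM in sham-labelled libraries, and rose (0.73 ± 0.18, adjusted p = 0.0311). The ligand genes Dll4 (1.26 ± 0.39, adjusted p = 0.0754) and Jag1 (0.68 ± 0.22, adjusted p = 0.0826) and the feedback regulator Nrarp (0.50 ± 0.19, adjusted p = 0.124) had the next smallest p-values, and in each of these 3 both cuff-labelled libraries were the higher.

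Of 8 genes of vitronectin receptors and the linked plasminogen activator system, 1 fell (2.96% of all genes were called lower), none rose and 7 did not pass. It was Itgav, the αv integrin subunit shared by several vitronectin receptors, at 107 and 82.1 CPM in cuff-labelled libraries, against 131 and 142 CPM in sham-labelled libraries (-0.53 ± 0.14, adjusted p = 0.0477). Itga5, the α5 subunit of the fibronectin receptor, had the next smallest p, at 2.16 and 3.40 CPM in cuff-labelled libraries, against 1.25 and 1.37 CPM in sham-labelled libraries (log2 fold change 1.08 ± 0.38, adjusted p = 0.106). Itgb3, the β3 partner of αv, had a log2 fold change of 0.48 ± 0.22 (adjusted p = 0.222).

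Of 20 further pericyte genes, 1 rose (1.15% of all genes were called higher), none fell and 19 did not pass, with a median log2 fold change of 0.46. Slc6a20a, an imino acid transporter gene, was at 3.91 and 7.74 CPM in cuff-labelled libraries, against 1.96 and 2.46 CPM in sham-labelled libraries (1.40 ± 0.33, adjusted p = 0.0311). Atp13a5, a marker of pericytes of the central nervous system, averaged 15.8 ± 2.91 CPM in cuff-labelled libraries and 9.95 ± 1.57 in sham-labelled libraries (SD, n = 2 each; adjusted p = 0.0564). Cspg4, the NG2 proteoglycan of pericytes and oligodendrocyte precursors, averaged 22.9 ± 0.794 CPM in cuff-labelled libraries and 15.2 ± 3.42 in sham-labelled libraries (adjusted p = 0.0564). The arterial connexin gene Gja4 was at 1.16 ± 0.34 on the log2 scale (adjusted p = 0.0659). In 10 of the 20 both cuff-labelled libraries were above both labelled sham (28.2% of all genes), and in 3 both were below (25.9%). These 3 were Ebf1 (-0.40 ± 0.17, adjusted p = 0.173), Angpt1 (-0.40 ± 0.19, 0.236) and Trpc6 (-0.33 ± 0.62, 0.807). Of 16 further contractile genes of smooth muscle, 0 were called by edgeR's quasi-likelihood test, 3 had an unadjusted p under 0.05 and DESeq2 called 2 higher (median log2 fold change 0.44). Of all 16918 genes, 3634 had an unadjusted p under 0.05 in the edgeR test, and DESeq2 called 272 higher. Tpm1, a tropomyosin gene, had the smallest p (0.45 ± 0.15, adjusted p = 0.0937). Synpo2 had the next and went the other way, at 4.83 and 4.54 CPM in cuff-labelled libraries, against 7.77 and 6.81 CPM in sham-labelled libraries. Its log2 fold change was -0.64 ± 0.23 (adjusted p = 0.120), and that of Casq2, the next gene, was 0.87 ± 0.40 (adjusted p = 0.219). Among SRF and its cofactors 7 of 8 genes could be tested, and 0 were called by either tool or had an unadjusted p under 0.05. Srf itself averaged 28.0 ± 3.59 CPM in cuff-labelled libraries and 26.1 ± 0.246 in sham-labelled libraries (0.10 ± 0.15, adjusted p = 0.734). Myocd, the smooth muscle coactivator of SRF, had 0 and 5 counts in cuff-labelled libraries and 6 and 0 in sham-labelled libraries, too few to test.

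**Figure D3:**
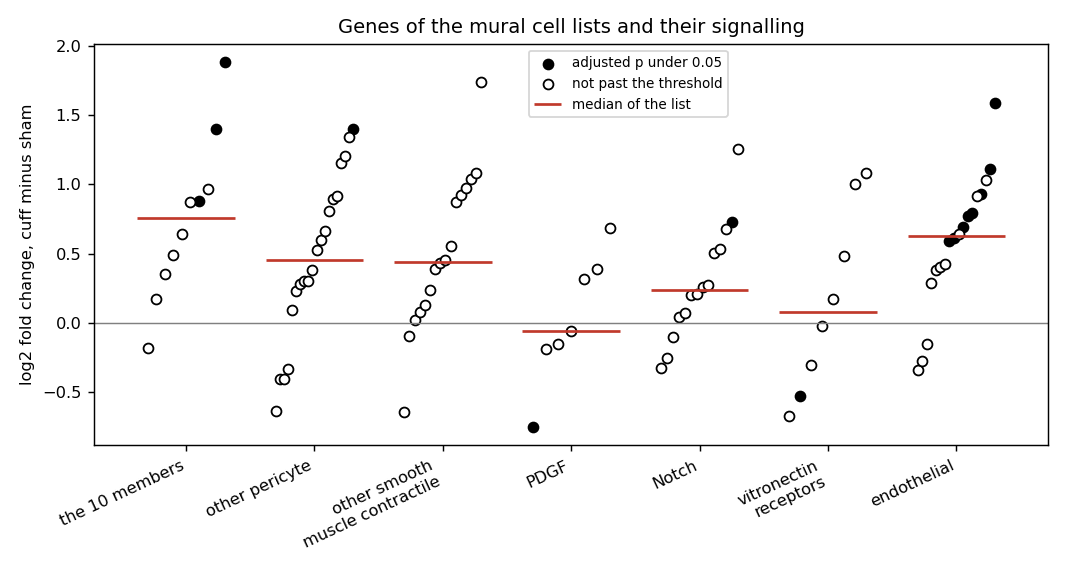
Log2 fold changes, labelled cuff minus labelled sham, of the genes in 7 lists, filled where the adjusted p was under 0.05, with each list's median as a red line. Medians are 0.76 for the 10 genes, 0.46 for other pericyte genes, 0.44 for other contractile genes and 0.63 for endothelial genes, while PDGF and vitronectin receptor genes lie on both sides of 0.

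Markers of other cells were read in the same 4 libraries. Of 18 endothelial genes 8 rose, none fell and 10 did not pass, while 1.15% of all genes were called higher and 2.96% lower. Their median log2 fold change was 0.63. The 8 were Cldn5 (log2 fold change 1.58, adjusted p = 0.00031), Slco1a4, Kdr, Egfl7, Tek, Tie1, Pecam1 and Flt1 (0.59, adjusted p = 0.048). The summed level of the 18 was 499 and 554 CPM in cuff-labelled libraries, against 432 and 456 in sham-labelled libraries. The summed CPM of the 10 mural genes relative to that sum was 0.334 and 0.397 in cuff-labelled libraries and 0.228 and 0.295 in sham-labelled libraries, and without Vtn 0.199 and 0.222 against 0.137 and 0.184. Abundant genes weigh most in the endothelial sum. In 14 of the 18 both cuff-labelled libraries were above both labelled sham (28.2% of all genes), and in 2 both were below (25.9%). These 2 were Slc2a1, the most abundant of the 18 (-0.27 ± 0.13, adjusted p = 0.228), and Mfsd2a (-0.34 ± 0.14, adjusted p = 0.165). The median log2 fold changes of the mural and endothelial lists were 0.76 and 0.63. The higher ratio of sums thus does not show that mural genes rose beyond endothelial genes. Of all 16918 genes tested, 8816 were positive on the log2 scale and 3634 had an unadjusted p under 0.05 in the edgeR test. DESeq2 called 272 of them higher and 814 lower. Of 16 fibroblast and meningeal genes, 15 were positive on that scale and 0 were called by edgeR (2 had an unadjusted p under 0.05, and DESeq2 called 2 higher). Their summed level was 461 and 914 CPM in cuff-labelled libraries and 291 and 516 in sham-labelled libraries, and fibroblasts also express Pdgfrb. Every one of the 16 skeletal muscle genes was positive on the log2 scale, with 0 called by edgeR, 0 with an unadjusted p under 0.05 and 1 called higher by DESeq2. Their sums were 337 and 960 CPM in cuff-labelled libraries and 281 and 193 in sham-labelled libraries. Of these sums, Pvalb alone gave 106 and 144 CPM in cuff-labelled libraries and 118 and 81.2 in sham-labelled libraries, with overlap between the groups. No marker of these 3 lists was at 0 in any library, and the part of these cells in the mural result was not tested. Neuronal, glial and lumbar Hox genes had at least 743 counts in each library for each of 14 genes, of which 1 fell, none rose and 13 did not pass (DESeq2 called 2 lower). The gene that fell was Aqp4, the water channel of astrocyte endfeet on vessels, at 593 and 463 CPM in cuff-labelled libraries, against 824 and 811 CPM in sham-labelled libraries (-0.63 ± 0.14, adjusted p = 0.0248). After the correction for length and GC content of transcripts it was at -0.35 (adjusted p = 0.114). Its part in the mural result was not tested.

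**Figure D4:**
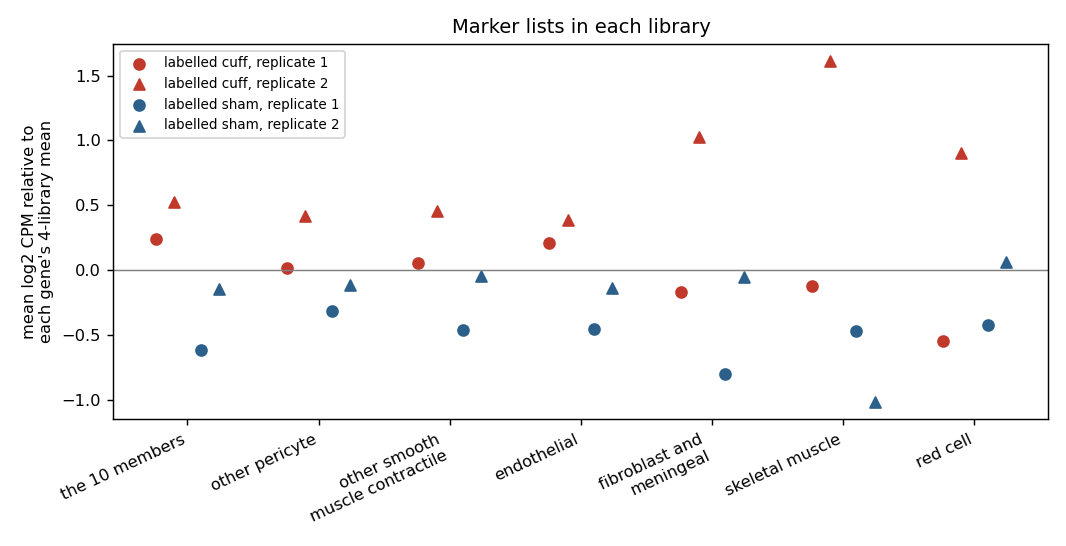
Mean log2 CPM of each marker list with each gene centred on its own 4-library mean, red for labelled cuff and blue for labelled sham, with circles for replicate 1 and triangles for replicate 2. The 10 mural genes are at 0.24 and 0.52 in cuff-labelled libraries and at -0.62 and -0.15 in sham-labelled libraries, and every list shown is highest in cuff-labelled replicate 2.

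The number of calls depended on single libraries, for mural genes and for all genes. Sham-labelled replicate 1 was the lowest for 9 of the 10 genes and cuff-labelled replicate 2 the highest for 7. Without cuff-labelled replicate 1, 1928 of 17404 genes were called, 714 of them higher, and 5 mural genes were among these, the same 3 with Acta2 (1.00, adjusted p = 0.0033) and Tagln (0.93, adjusted p = 0.0021). Without cuff-labelled replicate 2, sham-labelled replicate 1 or sham-labelled replicate 2, no mural gene kept a call in edgeR's quasi-likelihood test. These fits called 216 of 17464, 0 of 17575 and 13 of 17529 genes in all, so that a count of 0 says nothing particular about the mural genes. The log2 fold change of Pdgfrb was between 1.07 and 1.80 in these 4 fits, that of Vtn between 0.59 and 1.07, and that of Ndufa4l2 between 1.63 and 2.05. Acta2 ranged from 0.29 without sham-labelled replicate 1 to 1.82 without the second, and Tagln from 0.20 without cuff-labelled replicate 2 to 1.12 without sham-labelled replicate 2. The calls of Heyl, Slc6a20a, Pdgfd and Itgav were likewise kept without cuff-labelled replicate 1 (adjusted p from 9.4e-06 to 0.0372) and lost without any of the other 3 (from 0.144 to 0.657). Their log2 fold changes in these 4 fits were 0.55 to 0.91 for Heyl, 0.82 to 1.76 for Slc6a20a, -1.15 to -0.47 for Pdgfd and -0.78 to -0.35 for Itgav, each with the sign it has with all libraries.

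**Figure D5:**
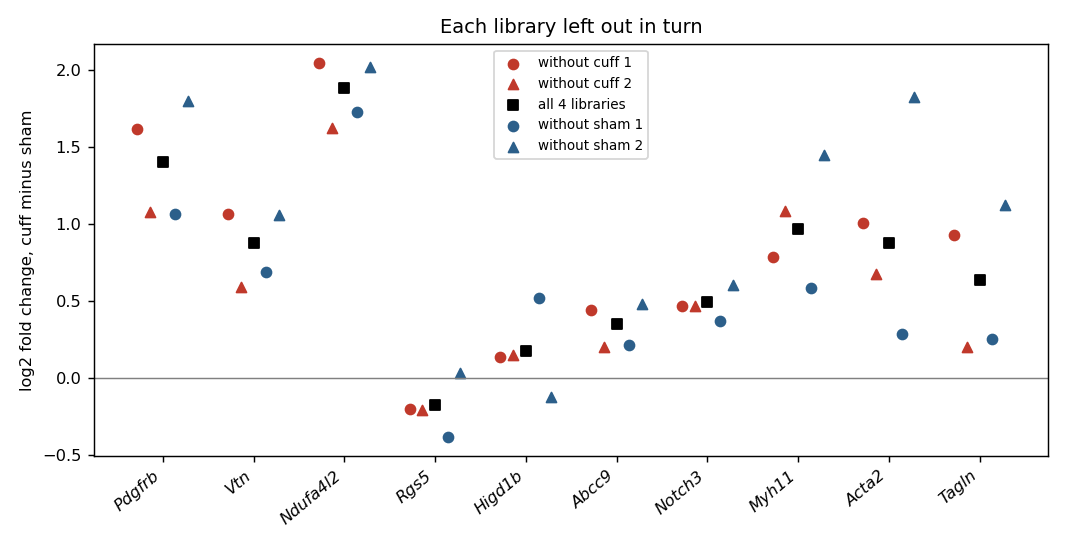
Log2 fold change of each gene, labelled cuff minus labelled sham, with all 4 libraries (black squares) and with each library left out (red for a cuff-labelled library, blue for one labelled sham, circles for replicate 1 and triangles for replicate 2). Pdgfrb, Vtn and Ndufa4l2 stay above 0.5 in all 5 fits, whereas Higd1b and Rgs5 lie on both sides of 0.

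After correction for the length and GC content of transcripts, edgeR's quasi-likelihood test called 0 of the 10 genes and 63 of 15465 genes in all. An unadjusted p under 0.05 was reached by 6 of the 10 and by 2680 of the 15465. All 10 were then positive on the log2 scale (median 0.65). Pdgfrb was at 1.32 (adjusted p = 0.0665), Vtn at 0.69 (0.213) and Ndufa4l2 at 1.63 (0.123), and Abcc9 moved to 0.60 (0.136). Heyl (0.59, adjusted p = 0.093), Slc6a20a (1.52, 0.104), Pdgfd (-0.55, 0.141) and Itgav (-0.23, 0.243) lost their calls too, and 4 of the 18 endothelial genes were called.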

How the data were processed

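RNA was extracted from the L4-6 spinal cord, and strand-specific poly(A) libraries were sequenced as read pairs of 150 bases, per the labels' protocols. Trimmomatic 0.30, HISAT2 2.0.1, featureCounts and build mm10 are named in the submitters' processing notes. The annotation and the strand setting were not given in the sources used here. The authors deposited raw counts per Entrez gene, and totals were 36074864 and 32936609 in cuff-labelled libraries and 39461573 and 38823517 in sham-labelled libraries. In 1 file a backslash and letter stood in place of the tab, and lines were split there. Of 27179 identifiers, 25275 were matched to RefSeq symbols and 18 more through GENCODE M21. No library was a copy of another (chi-square per degree of freedom from 25.4 to 72.7).

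Genes were filtered with filterByExpr, scaled by TMM and tested in R 4.3.3 with edgeR 4.0.16 (two-sided quasi-likelihood F test with a robust prior and no term besides group, Benjamini-Hochberg over all genes). DESeq2 1.42.0, limma 3.58.1 and the other alternatives are given in the closing section. The steps were tested on simulated data. CPM use the TMM-scaled totals of tested genes. Standard errors are the absolute unshrunk coefficient over the square root of F. The correction for length and GC was a local regression (span 0.4) of each library's centred log2 CPM (prior count 2) on transcript length and GC for 15465 genes, used as offsets. The members and lists were chosen with earlier results of these data known. The rule for named genes took all 10 members, every called gene of the other lists with up to 3 further genes of the smallest p (of some lists none of these is printed), close relatives of members, and the 5 nearest patterns, of which 1 is not reported here. Pdgfra, Srf, Myocd, Shmt2, Pcsk7, Slc2a1, Mfsd2a, Ebf1, Angpt1, Trpc6 and Pvalb were named after their values were seen.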

Additional observations from a re-analysis of the deposited data

How the results depend on the processing

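Of 150 refits of single mural genes, 126 kept their direction and side of the threshold, 15 lost and 5 gained a call, and 4 turned direction. The lost calls all belonged to Pdgfrb, Vtn and Ndufa4l2, the only genes that had a call to lose. The turned values belonged to genes that were not called: Rgs5 at 0.063 with the length and GC correction, 0.076 with that correction and the replicate block and 0.032 without sham-labelled replicate 2, and Higd1b at -0.12 without sham-labelled replicate 2. With 1 library left out Rgs5 ranged from -0.38 to 0.032 and Higd1b from -0.12 to 0.52. The number of mural genes called was 3 with all libraries and 5 with no filter (Myh11 and Notch3 added), and it depended on which library was left out. It was 0 with the length and GC correction (edgeR), where 6 of the 10 and 2680 of all 15465 genes had an unadjusted p under 0.05. It was 2 to 4 under the other settings, where Pdgfrb lost its call at a mean count of at least 10 (adjusted p = 0.0713), Ndufa4l2 with a prior that is not robust (0.0592) and with the block and correction together (0.0704), and Myh11 gained one with upper quartile scaling (0.0487). Of all genes, 696 were called, 638 with RLE scaling, 841 with upper quartile scaling, 652 with limma-voom (3 mural genes, as with RLE and DESeq2) and 586 at a mean count of at least 10, against 1086 with DESeq2, 1046 with the likelihood ratio test, 237 with a prior that is not robust, 1292 with no filter, 63 with the length and GC correction, and between 0 (2260 at an unadjusted p under 0.05) and 1928 with 1 library left out. The cause was not tested. Where a library was left out, the lone library of its group was assumed to vary like the other group. With the replicate number as a block, 554 of all genes and 3 mural genes were called, and 484 and 2 with the length and GC correction added. Nothing in the labels says that the numbers pair the libraries, and same-numbered libraries deviated with a correlation of 0.116. Ndufa4l2, with 18 to 76 counts, is the gene most limited by depth.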
